A study of Xenopus laevis with 6 samples.

Results

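Chordin, noggin and follistatin are secreted proteins of the dorsal side of the vertebrate embryo, and admp encodes a BMP-like ligand that is made there beside them. The 10 genes described here were the rows of the count table named chrd, nog, nog2, fst or admp among 45090 rows in all. That rule reads names alone, but the genes were proposed with earlier results of these data known. They were chrd.1.L.g, chrd.2.L.g, nog.L, nog.S, nog2.L, nog2.S, fst.L, fst.S, admp.L and admp.S, where L and S mark the copies on the long and short chromosomes of an allotetraploid frog. Of the 10, 8 had enough counts to be tested, and nog2.L and nog2.S did not.

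RNA was sequenced from whole wild-type embryos of the clawed frog Xenopus laevis that had reached the end of gastrulation (Nieuwkoop and Faber stage 12.5). Intact, untreated embryos (3 libraries) were compared with half-size embryos (3 libraries), each of which had grown from a single cell after the cells of a 2-cell embryo were separated. All embryos were fertilized in vitro and dejellied in cysteine, and embryos of the same replicate number were siblings, so that the 6 libraries form sibling pairs 1, 2 and 3. The sources used here do not say how many embryos went into a library.

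During gastrulation BMP ligands signal most strongly on the ventral side, and chordin, noggin and follistatin, released by the dorsal organizer (Spemann's organizer), bind these ligands outside the cell and keep them from their receptors. Chordin is cut by tolloid proteases, and sizzled, made ventrally in response to BMP, inhibits those proteases. Admp is a BMP family ligand that is transcribed dorsally, where BMP signalling is low, and it is known from Xenopus as a part of the feedback that restores body proportions after an embryo is cut.

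Libraries held 20069300 to 29284864 counts, and 1 count was worth between 0.0348 and 0.0501 CPM, the unit of expression used below (counts scaled to a common library size by the TMM method). Sibling libraries deviated from their group means together. With the group as its only term, the quasi-likelihood test of edgeR called 0 of 21673 tested genes at an adjusted p under 0.05 (0%), while 776 (3.58%) had an unadjusted p under 0.05, DESeq2 called 52 and limma-voom 0. With the sibling pair added as a block, a model called the paired fit here, edgeR called 1283 genes (5.92%), of which 431 rose and 852 fell in half-size embryos, and 507 when replicate 3 was left out. The fit without the block was the main fit, and as it called 0 genes in edgeR, calls named below are those of the paired fit. Those calls depend on that choice of fit. For each gene row named as called, other than those of lhx1 and dkk1, the adjusted p without the block was 0.9998 in edgeR. For those it is not given here.

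Chordin was higher in half-size embryos. In the paired fit chrd.1.L.g rose 1.42-fold and chrd.2.L.g 1.36-fold, and each was higher in the half-size library of every sibling pair. No noggin, follistatin or admp row passed in that fit. In the paired fit 2 of the 8 tested members were called, both higher, where 1.99% of all tested genes were called higher and 5.92% in either direction. Without the block edgeR called 0 of the 8, with 2 at an unadjusted p under 0.05, and DESeq2 and limma-voom also called 0. Expression was higher in the half-size library of all 3 pairs for 4 of the 8, chrd.1.L.g, chrd.2.L.g, nog.L and admp.L, and for 21.7% of all tested genes. The median log2 fold change of the 8 tested members was 0.23 in the paired fit and 0.19 without the block, beside 0.0031 and 0.0059 over all genes tested. Levels were scaled by library size and not by gene length, so they can be compared between libraries but not between genes.

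Chordin was counted in a pair of rows. In the RefSeq annotation of the assembly Xenopus_laevis_v10.1, chrd.1.L and chrd.2.L are separate neighbouring genes with 0 other listed genes between them. That annotation also lists a short-chromosome copy, chrd.1.S, which is not analysed here. The sources used here do not say how the counting treated reads that fit more than a single copy, nor whether reads of chrd.1.S were counted in the long-chromosome rows, so the division of counts between the chordin rows is uncertain, and their sum is given beside them.

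Expression of chrd.1.L.g was 197, 211 and 167 CPM in intact libraries 1, 2 and 3, and 273, 292 and 249 CPM in half-size embryos 1, 2 and 3. Every half-size library was above every intact library, and within each group pair 2 was the highest and pair 3 the lowest. The means were 192 ± 22.5 and 271 ± 21.3 CPM (SD, n = 3). In the paired fit the log2 fold change was 0.50 ± 0.07 (SE), and its adjusted p was 0.00477 (edgeR, Benjamini-Hochberg). Without the block the log2 fold change was 0.50 ± 0.13 (SE), with an unadjusted p of 0.00663 and an adjusted p of 0.9998 in edgeR. The log2 ratios of half-size to intact within pairs 1, 2 and 3 were 0.47, 0.47 and 0.58.

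Expression of chrd.2.L.g was 146, 151 and 120 CPM in intact libraries 1, 2 and 3, and 211, 190 and 166 CPM in half-size embryos 1, 2 and 3. The groups again did not overlap, and the lowest library of each group was that of pair 3. The paired log2 fold change was 0.44 ± 0.08 (SE) with an adjusted p of 0.0105 (edgeR). Without the block edgeR gave an unadjusted p of 0.0194 and an adjusted p of 0.9998. The ratios within pairs 1, 2 and 3 were 0.53, 0.33 and 0.47 on the log2 scale. Both chordin rows stayed called in all 7 alternatives run with the block, with adjusted p of at most 0.0276 for chrd.1.L.g and 0.0485 for chrd.2.L.g, both of them without replicate 3.

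Summed over both rows, chordin was at 343, 362 and 287 CPM in intact embryos and 484, 482 and 415 CPM in half-size embryos 1, 2 and 3. The lowest half-size library thus lay above the highest intact library. Fitted as 1 gene, the sum rose 1.39-fold in the paired fit (0.48 ± 0.07 on the log2 scale, SE, with an edgeR adjusted p of 0.0051), and without the block its adjusted p was 0.9997. The row chrd.2.L.g took between 39.4% and 43.6% of the chordin counts of a library, and the log2 ratio of chrd.2 to chrd.1 moved by −0.060 between the groups (exact two-sided permutation p = 0.5).

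**Figure D1:**
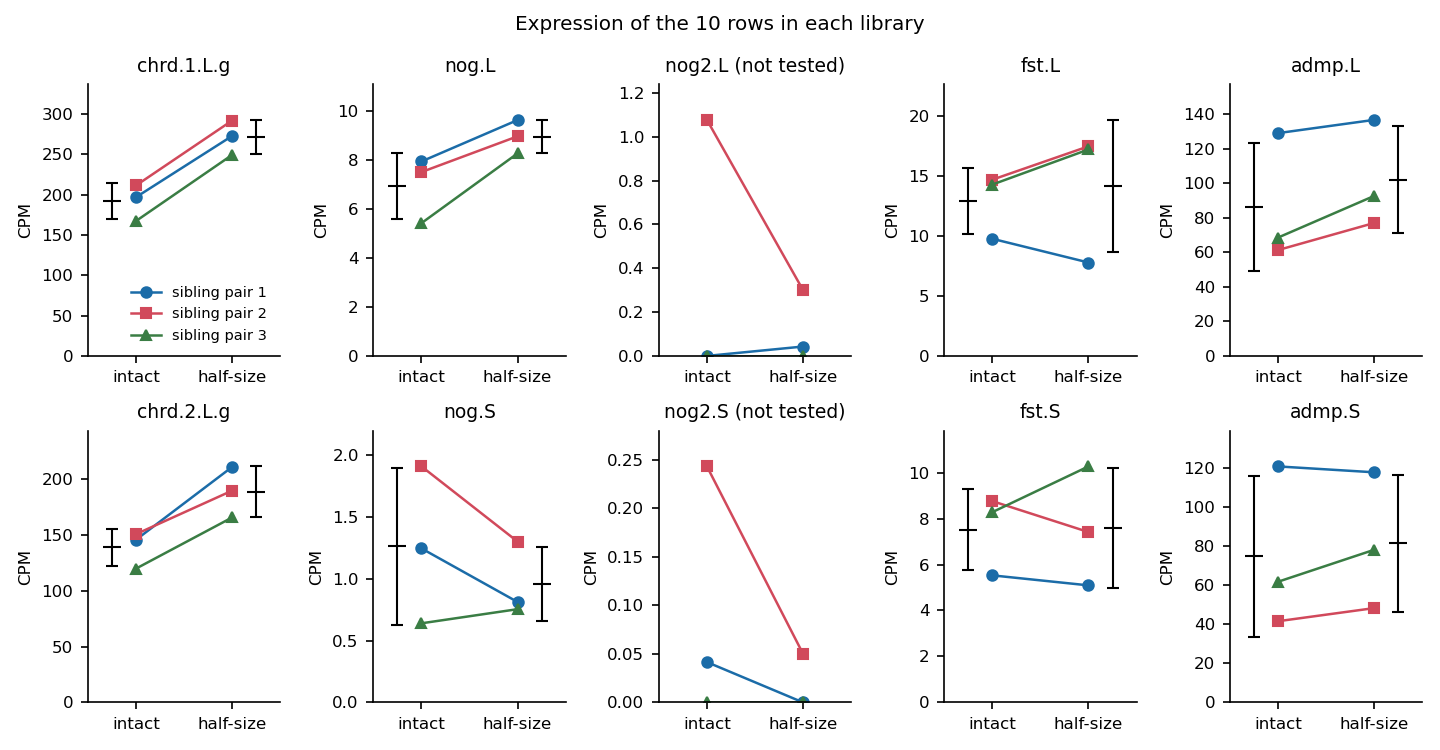
Expression of the 10 rows in CPM (vertical axes, each starting at 0) in intact and half-size libraries, with a line joining the libraries of a sibling pair and bars for mean ± SD (n = 3) of tested rows. All 3 half-size points lie above all 3 intact points for chrd.1.L.g, chrd.2.L.g and nog.L, and in no other panel.

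Noggin, which binds BMP ligands directly, was counted as nog.L and nog.S, and neither row passed. Expression of nog.L was 7.94, 7.51 and 5.42 CPM in intact libraries 1, 2 and 3, and 9.63, 8.97 and 8.27 CPM in half-size embryos 1, 2 and 3. The groups did not overlap, with the highest intact library (7.94 CPM) just below the lowest half-size library (8.27 CPM). Of the 8 tested members, the chordin rows and nog.L were the 3 whose ranges were separate with the half-size group higher, as were those of 4.14% of all tested genes. The paired log2 fold change of nog.L was 0.38 ± 0.15 (SE), with an unadjusted p of 0.0269 and an adjusted p of 0.158 in edgeR, and it was called in 0 of the 7 alternatives with the block. Its ratios within pairs 1, 2 and 3 were 0.28, 0.26 and 0.61 on the log2 scale.

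The copy nog.S was low, at 30, 55 and 13 counts in intact libraries 1, 2 and 3 and 19, 26 and 20 counts in half-size libraries 1, 2 and 3. These counts correspond to 1.247, 1.91 and 0.641 CPM and to 0.813, 1.302 and 0.755 CPM. The half-size libraries all lay within the range of the intact libraries, with the highest value of each group in pair 2. At this depth counting error alone is wide. The exact 95% Poisson interval ran from 0.341 to 1.10 CPM in intact library 3 and from 0.461 to 1.17 CPM in half-size library 3. In intact library 2 it ran from 1.44 to 2.49 CPM, wholly above that of intact library 3. Such intervals cover counting error only. The paired log2 fold change was −0.36 ± 0.30 (SE) with an adjusted p of 0.524 (edgeR). Without intact replicate 2 the fit with no block put it at 0.015.

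Within a library, nog.L made up 86.4%, 79.7% and 89.4% of the counts of both noggin copies in intact libraries 1, 2 and 3, and 92.2%, 87.3% and 91.6% in half-size libraries 1, 2 and 3. The share was higher in the half-size library of each pair. The log2 ratio of nog.L to nog.S was 2.55 ± 0.54 in intact and 3.24 ± 0.42 in half-size libraries (SD, n = 3), a difference of 0.69 with an exact two-sided permutation p of 0.2. For 3 libraries against 3 the smallest p of that test is 0.1.

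The second noggin gene, nog2, is expressed later in the development of Xenopus, in the forming forebrain. Its row nog2.L had 0, 31 and 0 counts in intact libraries 1, 2 and 3, and 1, 6 and 0 counts in half-size libraries 1, 2 and 3. Nearly all counts thus came from sibling pair 2, in which the half-size library was at 0.279 times the level of the intact library (exact 95% interval 0.0952 to 0.679, covering counting error only). A count of 0 allows up to 0.125 CPM in intact library 1, 0.148 CPM in intact library 3 and 0.113 CPM in half-size library 3. The copy nog2.S had 7 counts in intact library 2 and at most 1 count in any other library. Neither nog2 row was tested.

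Follistatin binds activins as well as BMP ligands. Expression of fst.L was 9.77, 14.7 and 14.3 CPM in intact libraries 1, 2 and 3, and 7.79, 17.5 and 17.2 CPM in half-size embryos 1, 2 and 3. The groups overlapped, and pair 1 was the lowest of each group. Within pairs 1, 2 and 3 the log2 ratio was −0.33, 0.25 and 0.27. The paired log2 fold change was 0.080 ± 0.15 (SE) with an adjusted p of 0.8 (edgeR), and it was negative without replicate 2 (−0.016) or replicate 3 (−0.019).

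The copy fst.S was at 5.53, 8.76 and 8.28 CPM in intact embryos and 5.09, 7.41 and 10.3 CPM in half-size embryos 1, 2 and 3. Its groups overlapped too, and it was lower in the half-size library of pairs 1 and 2 and higher in that of pair 3. The log2 fold change was −0.0096 ± 0.16 (SE) in the paired fit (adjusted p = 0.981, edgeR) and 0.014 ± 0.33 (SE) without the block, so that its sign depended on the fit. With these standard errors the paired values leave room for a change of fst in either direction.

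Admp was counted as admp.L and admp.S. Expression of admp.L was 129, 61.3 and 68.6 CPM in intact libraries 1, 2 and 3, and 137, 77.0 and 92.7 CPM in half-size embryos 1, 2 and 3. Each half-size library was above its intact sibling, but the groups overlapped, because both libraries of pair 1 were far above the other 4. The highest intact library was 2.11 times the lowest. The paired fit, which removes such differences between pairs, gave a fold change of 1.21. That fold change corresponded to a log2 value of 0.28 ± 0.09 (SE), with an unadjusted p of 0.0106 and an adjusted p of 0.0954 in edgeR.

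The call of admp.L depended on the processing. It passed without replicate 1, where the log2 fold change was 0.39 and the adjusted p 0.0302, and with no filter on low counts (adjusted p = 0.0448), both in edgeR with the block. The no-filter p-values are not comparable with the rest. For chrd.1.L.g the edgeR adjusted p was 8.25e-07 with no filter and 0.00477 with it, although the SE was larger with no filter (0.09 against 0.07). In the other 5 alternatives with the block admp.L did not pass, with adjusted p up to 0.387 (without replicate 3). With no block and without half-size replicate 1 its log2 fold change was −0.024. That fit keeps intact library 1, the highest of its group, without its sibling.

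The copy admp.S was at 121, 41.5 and 61.7 CPM in intact embryos and 118, 48.2 and 78.0 CPM in half-size embryos 1, 2 and 3. The half-size library was below its sibling in pair 1 and above it in pairs 2 and 3, with log2 ratios of −0.036, 0.22 and 0.34. The intact libraries spanned 2.91-fold, the paired fold change was 1.13, and the adjusted p was 0.324 (edgeR). With no block its log2 fold change of 0.12 turned to −0.16 without intact replicate 2 and to −0.24 without half-size replicate 1. The log2 ratio of admp.L to admp.S was higher in the half-size library by 0.12, 0.11 and 0.10 in pairs 1, 2 and 3. It varied more between pairs (0.27 ± 0.25 in intact and 0.38 ± 0.26 in half-size libraries, SD, n = 3). Its exact permutation p was 0.5, and its difference was −0.038 without half-size replicate 2. Each value with a library left out also contains differences between pairs, because the sibling of that library stays in.

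The paralogue admp2 does not belong to the genes defined above. Its row admp2.L was at 41.8, 52.6 and 55.3 CPM in intact embryos and 42.6, 62.1 and 73.4 CPM in half-size embryos 1, 2 and 3. Unlike both admp rows it was lowest in pair 1 of each group, and its paired adjusted p was 0.201 (edgeR).

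**Figure D2:**
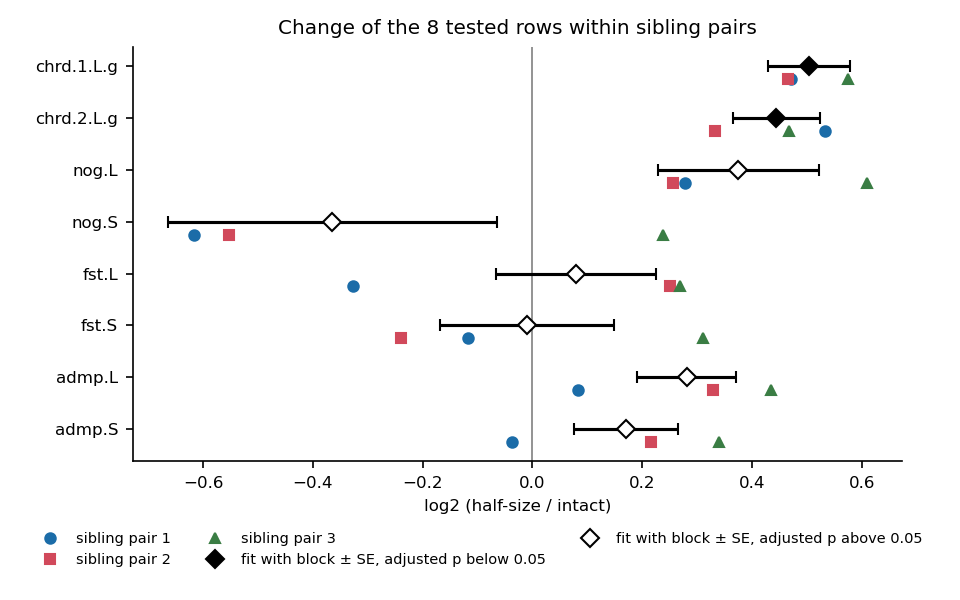
Log2 ratio of half-size to intact expression (horizontal axis) for the 8 tested rows, with small symbols for the sibling pairs and diamonds for the paired edgeR fit ± SE. The filled diamonds of chrd.1.L.g (0.50) and chrd.2.L.g (0.44) are the rows with an adjusted p under 0.05, and the pairs of nog.S, fst.L, fst.S and admp.S lie on both sides of 0.

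Rows also differed in how far sibships stood apart. Between the highest and the lowest intact library the span was 1.26-fold for both chordin rows, 1.46-fold for nog.L, 1.505-fold for fst.L and 1.58-fold for fst.S, against 2.11-fold and 2.91-fold for admp.L and admp.S and 2.98-fold for nog.S. In half-size libraries the spans were 1.17-fold for chrd.1.L.g, 1.27-fold for chrd.2.L.g and 1.16-fold for nog.L. They were 2.24-fold for fst.L, 2.02-fold for fst.S, 1.78-fold for admp.L, 2.44-fold for admp.S and 1.72-fold for nog.S. The order of the fst rows against admp.L and nog.S thus differed between the groups. Admp was highest in pair 1, where follistatin was lowest, and nog2 was detected above 1 count in pair 2 alone. Genes that are transcribed at the early gastrula stage and then decline, given as a fixed list of 14 rows, summed to 398, 152 and 508 CPM in intact libraries 1, 2 and 3, so the sibships also differed in these stage-dependent genes, with pair 2 the lowest. Their part in the differences between pairs was not tested.

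Ratios between genes of the same library do not depend on the scaling between libraries, and 8 were compared. The ratio of chordin to bmp4, a ligand that chordin binds, was 0.66, 1.07 and 0.74 log2 units in intact and 1.52, 1.78 and 1.44 in half-size libraries 1, 2 and 3. Every half-size library was above every intact library. The difference was 0.76 log2 units, or 1.69-fold, with 0.87, 0.70 and 0.70 in pairs 1, 2 and 3. Its exact two-sided permutation p was 0.1, the smallest that the design allows, and 0.4 after Benjamini-Hochberg adjustment over the 8 ratios. The shift combined a rise of chordin with a fall of bmp4. In pairs 1, 2 and 3 the summed chordin rows changed by 0.50, 0.41 and 0.53 log2 units, and the summed bmp4 rows by −0.37, −0.29 and −0.17.

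The ratio of chordin to sizzled (szl) was 1.95 ± 0.26 log2 units in intact and 3.74 ± 0.51 in half-size libraries (SD, n = 3), with no overlap. It was higher in the half-size library of all 3 pairs, by 0.93, 2.37 and 2.05 log2 units, and its exact permutation p was 0.1 (0.4 adjusted). The difference of 1.78 log2 units combined the rise of chordin with a fall of szl. In pairs 1, 2 and 3 the summed szl rows changed by −0.43, −1.96 and −1.52 log2 units, and the summed chordin rows by 0.50, 0.41 and 0.53. The change of szl was thus the larger in pairs 2 and 3 but not in pair 1.

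Among the members themselves the ratios moved less. The ratio of chordin to admp was 0.46, 1.82 and 1.14 log2 units in intact and 0.93, 1.94 and 1.28 in half-size libraries 1, 2 and 3. It was higher by 0.47, 0.13 and 0.14 in the half-size library of pairs 1, 2 and 3, but the groups overlapped (difference 0.25, exact permutation p = 0.7). That difference was −0.095 without intact replicate 1 and −0.033 without half-size replicate 2. With 1 library left out its sibling stays in, so differences between pairs enter such a value. The ratio of chordin to noggin differed by 0.19 (exact permutation p = 0.4), with 0.31, 0.29 and −0.040 in pairs 1, 2 and 3, and its 3 half-size values were 5.53, 5.55 and 5.52. The ratio of admp to noggin differed by −0.060 (exact permutation p = 0.9), and by 0.22, 0.045 and 0.21 without intact replicate 1, intact replicate 3 and half-size replicate 2. Paired by sibship, an exact two-sided sign-flip test gave p = 0.25 for chordin to admp, the smallest it allows for 3 pairs, and p = 0.5 for chordin to noggin. Neither kind of test can reach 0.05 here, so these data do not settle whether chordin changed more than noggin or admp.

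**Figure D3:**
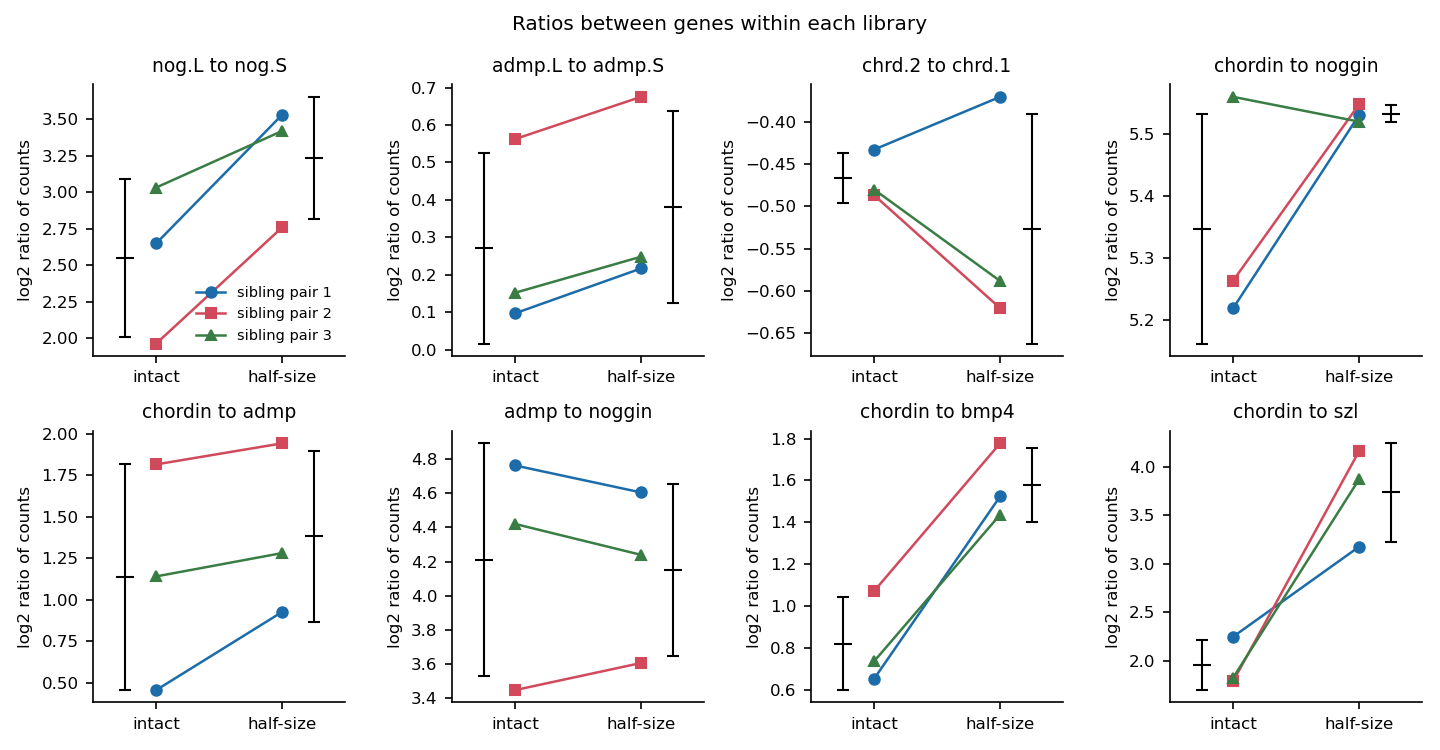
Log2 ratios of counts between genes within each library (vertical axes, each with its own range), with lines joining sibling pairs and bars for mean ± SD (n = 3). The groups are separate for chordin to bmp4 and chordin to szl, and overlap in the other panels.

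The rest of the pathway was read from 6 lists of genes grouped by role. Of their 47 symbols 35 matched rows of the table, with 62 tested rows, and the other symbols, among them those of the tolloid proteases bmp1 and tll1, are not analysed here. In the paired fit 8 rows fell, 1 rose and 53 did not pass, where 3.93% of all tested genes were called lower and 1.99% higher. Without the block edgeR called 0 of the 62, with 8 at an unadjusted p under 0.05, DESeq2 called 1 and limma-voom 0. The paired count of 9 was 14 without replicate 1 and 5 without replicate 3.

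Among 9 tested rows of BMP ligands 1 fell, beside 3.93% of all tested genes, and the median paired log2 fold change was −0.20. The row that fell, bmp7.1.S, was at 6.44, 12.1 and 7.49 CPM in intact embryos and 4.75, 7.36 and 3.62 CPM in half-size embryos 1, 2 and 3 (paired adjusted p = 0.0268, edgeR). It no longer passed when replicate 2 (adjusted p = 0.0713) or replicate 3 (adjusted p = 0.138) was left out. The other copy, bmp7.1.L, averaged 53.5 CPM over the 6 libraries and did not pass (paired log2 fold change −0.20, adjusted p = 0.393 in edgeR). The ligand row with the highest CPM, bmp4.S, averaged 116 ± 20.7 CPM in intact embryos and 94.4 ± 14.3 CPM in half-size embryos (SD, n = 3). Its log2 ratios within pairs 1, 2 and 3 were −0.34, −0.35 and −0.20, and it did not pass (paired adjusted p = 0.0546, edgeR).

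Where 1.99% of all tested genes were called higher, 1 of 12 receptor rows rose. This was acvr1.L, which encodes a type I receptor for BMP ligands, at 33.5, 24.99 and 30.5 CPM in intact embryos and 51.3, 33.5 and 41.3 CPM in half-size embryos 1, 2 and 3. The lowest half-size library (33.51 CPM) was barely above the highest intact library (33.46 CPM), and the call (paired adjusted p = 0.0173, edgeR) was lost without replicate 3 (adjusted p = 0.053). The other copy, acvr1.S, averaged 72.5 CPM over the 6 libraries and did not pass (paired log2 fold change 0.12, adjusted p = 0.465 in edgeR). With no filter 1 receptor row also fell. The receptor row with the highest CPM, acvr2b.S, did not pass (paired log2 fold change −0.11, adjusted p = 0.486 in edgeR).

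Among 13 rows of Smads, which carry the signal to the nucleus or inhibit it, 1 fell, beside 3.93% of all tested genes. The inhibitory smad7.L averaged 65.8 ± 17.3 CPM in intact embryos and 45.2 ± 6.07 CPM in half-size embryos (SD, n = 3), with a paired adjusted p of 0.0183 in edgeR. That call disappeared without replicate 2 (adjusted p = 0.13) and without replicate 3 (adjusted p = 0.0724). Of the Smads 2 rows fell in limma-voom and with no filter, both with the block, and 1 rose without replicate 1. The row with the highest CPM, smad4.1.S.g, the common partner of the receptor Smads, had a paired log2 fold change of −0.047 (adjusted p = 0.785, edgeR), and 0.056 without replicate 1.

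Of the extracellular regulators of chordin 3 rows were tested and 2 fell, both of sizzled, where 3.93% of all tested genes were called lower. The row szl.L was at 42.1, 72.7 and 55.1 CPM in intact embryos and 32.5, 17.2 and 14.4 CPM in half-size embryos 1, 2 and 3, and szl.S was at 30.1, 32.2 and 26.1 CPM and at 21.1, 9.67 and 13.97 CPM. Pair 1 had the smallest difference for both rows. The paired edgeR adjusted p was 0.0111 for szl.L, lost without replicate 3 (0.0604), and 0.0121 for szl.S. DESeq2 with the block did not call szl.L (adjusted p = 0.06). The third row, bmper.L, changed by −0.28 on the log2 scale and did not pass (paired adjusted p = 0.205, edgeR).

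Of 7 tested rows of other secreted BMP antagonists 0 passed in the paired edgeR fit, and 0 passed in DESeq2 or limma-voom with the block. In the paired edgeR fit 1 row had an unadjusted p under 0.05, a threshold for which the share of all tested genes is not given here. The row with the highest CPM, cer1.S, which encodes an antagonist of BMP, Nodal and Wnt ligands, was at 289, 119 and 245 CPM in intact embryos and 401, 137 and 281 CPM in half-size embryos 1, 2 and 3. It was higher in each pair, the groups overlapped, and its paired adjusted p was 0.0664 (edgeR). It passed with no filter and the block (adjusted p = 0.0139), and 1 row of the list rose without replicate 1. With no block and without half-size replicate 1 the log2 fold change of cer1.S was −0.061. There intact library 1, the highest of its group, stays in without its sibling.

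Among 18 rows of genes that respond to BMP signals 4 fell and 0 rose in the paired fit, with a median log2 fold change of −0.24. Over all tested genes 3.93% were called lower and 1.99% higher. The rows that fell were bambi.S and bambi.L, which encode a pseudoreceptor, and the homeobox genes msx2.L and msx1.S, with paired log2 fold changes of −0.61, −0.55, −0.49 and −0.44. The other 14 rows did not pass, with changes from −1.25 (ventx3.1.S, averaging 0.864 CPM) to 0.32 (id4.L, averaging 1.06 CPM). Among them ventx1.2.L and ventx1.2.S changed by 0.10 and −0.013. The symbols ventx2, id1, id3 and gata2 are not analysed here. The row bambi.L ranged from 154 to 173 CPM in intact and from 110 to 117 CPM in half-size embryos. For bambi.S the ranges were 90.1 to 100 CPM and 57.2 to 65.4 CPM. The call of msx2.L was lost without replicate 2 (edgeR adjusted p = 0.0519), and that of msx1.S (adjusted p = 0.0499) was lost with replicate 1 left out, with replicate 2 left out (0.337) and with the size factors of DESeq2. Its copy msx1.L, the row of the list with the highest CPM, did not pass (paired log2 fold change −0.48, adjusted p = 0.0514 in edgeR). It passed in 4 of the 7 alternatives with the block, which were DESeq2 (adjusted p = 0.0143), limma-voom (0.0480), no filter (6.79e-05) and replicate 1 left out (0.00526). As for admp.L, the no-filter value is not comparable with the others. The copy msx2.S, averaging 59.0 CPM over the 6 libraries, did not pass either (paired log2 fold change −0.056, adjusted p = 0.779 in edgeR). The list's count of 4 was 7 without replicate 1, 7 with no filter, 6 in DESeq2 and 2 without replicate 2.

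**Figure D4:**
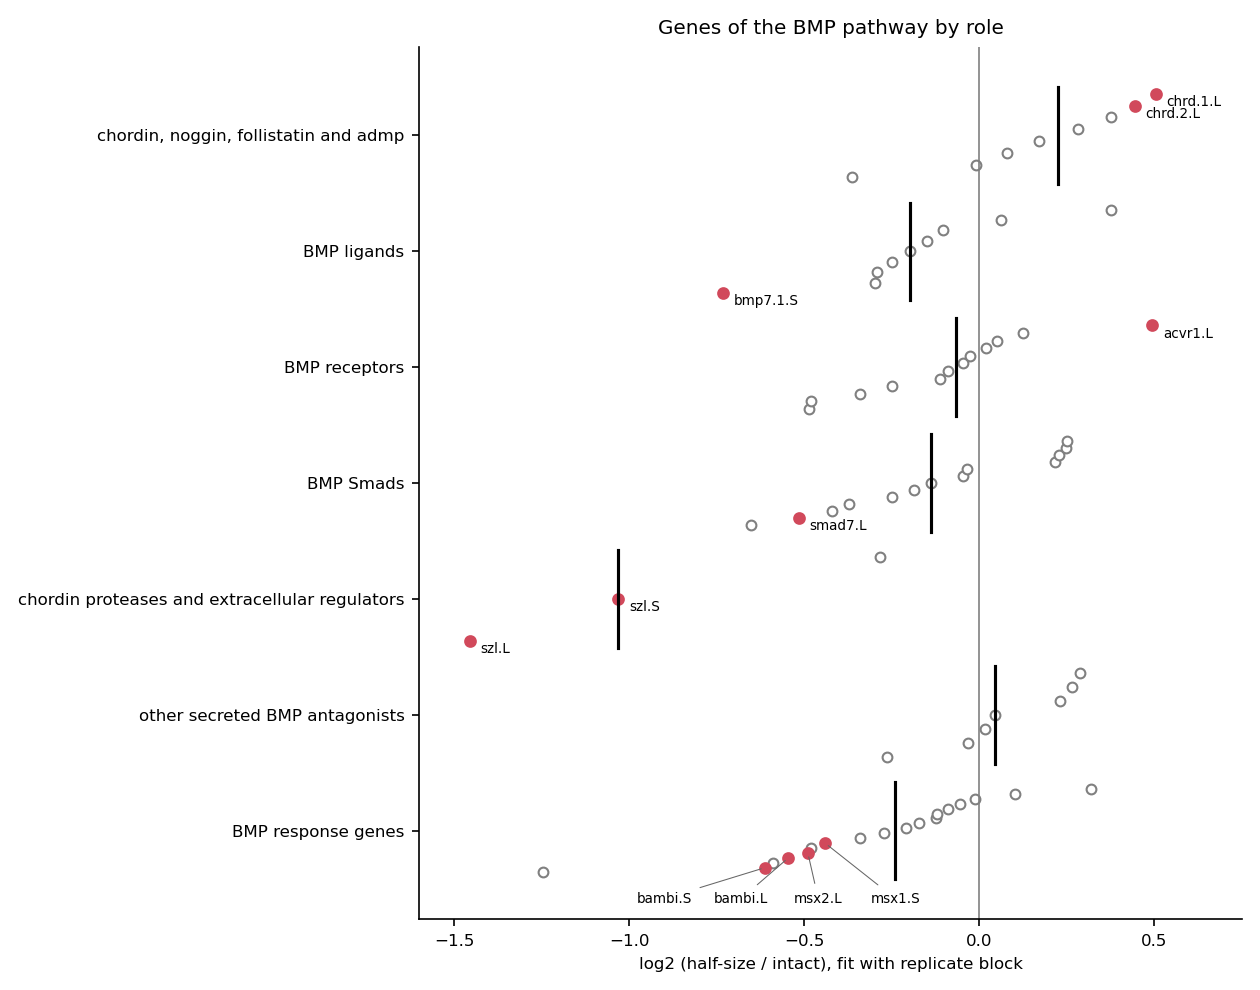
Paired log2 fold change of half-size against intact embryos (horizontal axis) for the tested rows of each role (vertical axis), with filled points for rows at an adjusted p under 0.05 and a vertical bar at each median. The members have the highest median (0.23) and the extracellular regulators of chordin, with 3 rows, the lowest (−1.03), and within each role the vertical position only spreads the points.

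Markers of regions of the embryo were read beside the members, since in RNA from whole embryos more cells of a region and more RNA per cell cannot be told apart. For the organizer 8 of 11 symbols matched, and otx2, noto and tbxt are not analysed here. Of 16 rows of the organizer and dorsal midline, where chordin and admp are transcribed, 6 rose and 0 fell in the paired fit. Over all tested genes 1.99% were called higher and 3.93% lower. The median log2 fold change of the list was 0.35, and 4 rows rose without replicate 3 and 8 with no filter. Over all tested genes 165 of 21928 rose without replicate 3 and 1115 of 35048 with no filter. Counts of the alternatives are thus not to be set against the 1.99%, and their totals are given in the last section. The 6 called rows were the L and S rows of lhx1, frzb and dkk1. The Wnt antagonist rows frzb.S and frzb.L changed by 1.06 and 0.93 on the log2 scale. Rows of gsc, hhex, shh, foxa4 and foxa2 did not pass, with paired log2 fold changes from −0.0032 (gsc.L) to 0.48 (hhex.S). The summed level of this list was 613 to 864 CPM in intact embryos and 747 to 1232 CPM in half-size embryos, and 0 of its rows was at 0 in all libraries. Within pairs 1, 2 and 3 its sum was higher in the half-size library by 0.51, 0.29 and 0.48 log2 units, beside 0.50, 0.41 and 0.53 for the chordin rows, 0.18, 0.12 and 0.57 for the noggin rows and 0.027, 0.28 and 0.39 for the admp rows. Its part in the rise of chordin was not tested.

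Of 11 rows of the non-neural epidermis 9 fell in the paired fit and 0 rose. Over all tested genes 3.93% were called lower and 1.99% higher. In this list 6 rows fell without replicate 3, and 1 rose without replicate 1 and with no filter. Among the rows that fell were tp63.S, a regulator of basal epidermis, from 72.6 ± 15.8 to 15.2 ± 12.9 CPM (SD, n = 3), and itln1.L, an intelectin of epidermal secretory cells. Neither dlx5 row passed. The row dlx5.S went the other way, by 0.36 log2 units (paired adjusted p = 0.163, edgeR). Its copy dlx5.L hardly moved (−0.0041, paired adjusted p = 0.989 in edgeR). Of the epidermal symbols, grhl1, tfap2a, tfap2c and krt70 are not analysed here. The summed level of the epidermis list was 1408 to 2079 CPM in intact embryos and 814 to 1320 CPM in half-size embryos. Of 8 early gastrula rows 3 rose (5 without replicate 2 and 6 with no filter) and 1 fell. The paired log2 fold change was 0.89 for eomes.S, a T-box gene of early mesendoderm, and −0.94 for gs17.S. The other copy, gs17.L, the row of the list with the highest CPM, went the other way. It changed by 0.55 and did not pass (paired adjusted p = 0.0624, edgeR). This list's sum was 152 to 508 CPM in intact embryos and 243 to 746 CPM in half-size embryos, and it was higher in the half-size library of each pair, by 0.33, 0.68 and 0.56 log2 units. Of 8 rows of ventral and lateral mesoderm 2 rose, wnt8a.S and wnt8a.L, but the median paired log2 fold change of the list was −0.065. The other rows did not pass. Of these msgn1.S changed by 0.12, and msgn1.L, gata4.L, gata4.S, evx1.L and evx1.S by −0.078, −0.052, −0.20, −0.14 and −0.32. Of 13 neural plate rows 0 passed in the paired fits of edgeR, DESeq2 and limma-voom, and 0 of 13 endoderm rows. In the paired edgeR fit 4 neural plate rows and 5 endoderm rows had an unadjusted p under 0.05. The share of all tested genes at that threshold in the paired fit is not given here, so these counts cannot be set against it. Without replicate 1, 2 neural plate rows rose and 1 endoderm row fell, and with no filter 1 neural plate row and 2 endoderm rows rose. Without the block edgeR called 0 rows of these 6 lists. The part of these lists in the changes of the members was not tested.

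**Figure D5:**
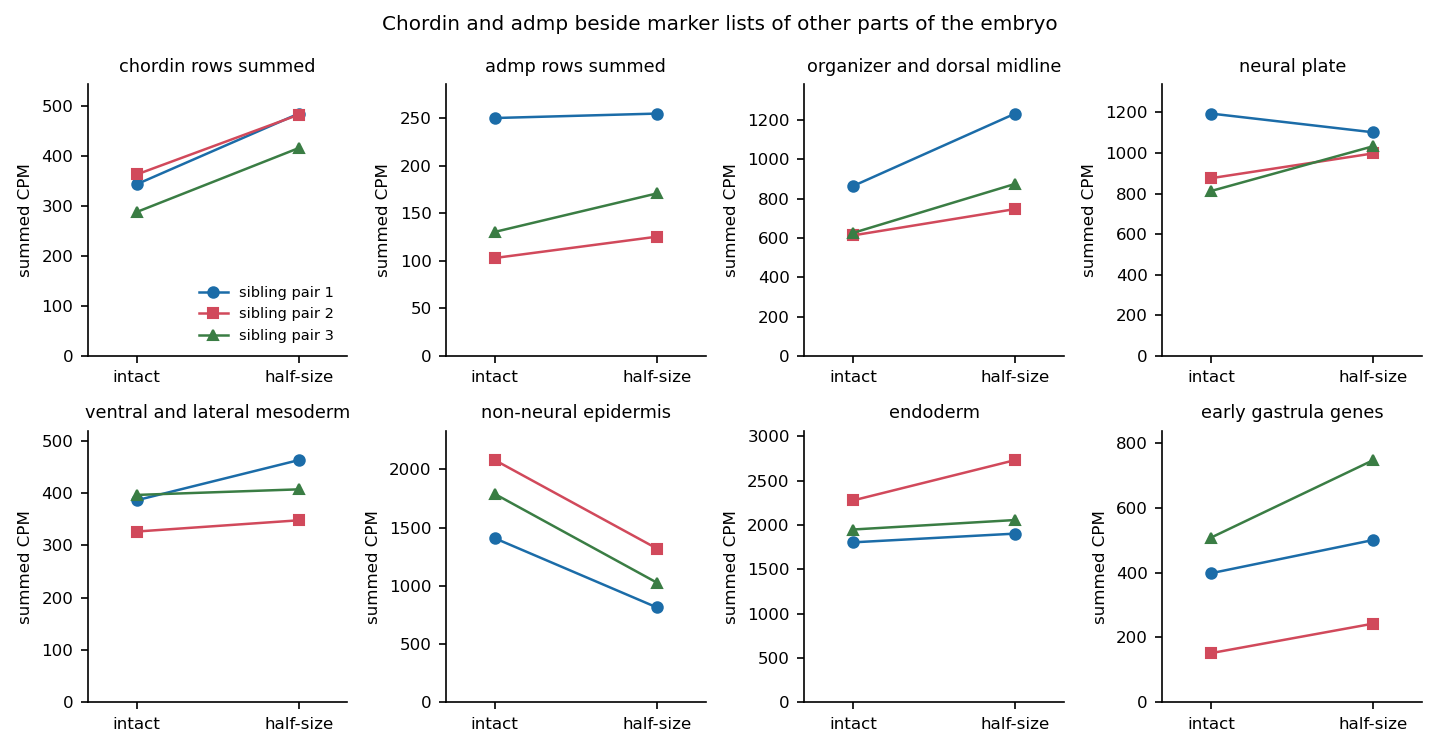
Summed CPM (vertical axes, each starting at 0) of the chordin rows, the admp rows and 6 marker lists in intact and half-size libraries, with a line joining each sibling pair. The half-size library of each pair is higher in the panels of chordin, admp, the organizer, the ventral and lateral mesoderm, the endoderm and the early gastrula genes, and lower in that of the epidermis, while the neural plate list differs in direction between pairs. Sums are weighted to the rows with the highest CPM, such as a2m.S in the endoderm panel (mean of 1435.5 CPM). The ventral and lateral mesoderm list has a median paired log2 fold change of −0.065.

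Over the 6 libraries, the genes whose log2 CPM followed the summed chordin rows most closely, among 6817 named genes with a mean of at least 10 CPM, were arih2.S, zmym3.L and tnrc6a-like.S (Pearson r of 0.983, 0.980 and 0.979). For the summed noggin rows they were prdm4.L, pds5a.S and psmb3.L (0.997, 0.9904 and 0.985), and for the summed admp rows crkl.S, acat1.L and dcp1b-like.S (0.997 for each). Of the 6817 genes 20 reached an r of 0.95 with chordin, 41 with noggin and 169 with admp. The 6 libraries share 3 sibships, so these values describe a likeness and carry no p.

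The authors' deposited table lists the same 8 members that were tested here. In the authors' deposited table chrd.1.L.g and chrd.2.L.g have linear fold changes of 1.42 and 1.37 with p-values of 0.0731 and 0.114. The authors' deposited table gives a fold change of 1.29 to nog.L and of 0.759 to nog.S, of 1.10 to fst.L and of 1.01 to fst.S, and of 1.19 to admp.L and of 1.09 to admp.S. The adjusted p in the authors' deposited table is 1 for each of the 8, and 21 of its 19518 genes have an adjusted p under 0.05.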

How the data were processed

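Poly(A)-selected, strand-specific libraries were made with the TruSeq Stranded mRNA kit from whole embryos, per the labels' protocols. The authors deposited raw counts per gene and library. Per the submitters' processing notes the tools were TopHat2, HTSeq and DESeq, with neither version nor role. For the genome build, and for whether counting used strand, the sources used here give nothing. In the authors' deposited table of their comparison, the mean levels are a signal, counts divided by size factors, which recomputation from the counts matched within 1% for 100% of 19508 genes. The authors' deposited table also holds a linear ratio of half-size to intact, the log2 of that ratio, and a p-value before and after adjustment.

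Counts were tested with edgeR 4.0.16 (glmQLFit and glmQLFTest, two-sided) in R 4.3.3 after TMM scaling and filterByExpr, which kept 21673 of 45090 rows. Benjamini-Hochberg adjustment covered all tested genes, at a threshold of 0.05. The main fit had the group as its only term, and the alternative, the paired fit, added the replicate number as a block. The numbers pair the libraries, since the titles describe siblings of the same number. Deviations from the group means correlated at 0.75, 0.82 and 0.68 within numbers and between −0.55 and −0.20 across them. Alternatives used DESeq2 1.42.0, limma-voom (limma 3.58.1), other scalings, no filter and left-out libraries. Ratios used counts plus 0.5, and log2 CPM for likeness a prior count of 2. A count of 0 was read as up to 3 counts. Apart from siblings within a number nothing states how many embryos or cultures lie behind a library. Without the block, p-values therefore measure the spread between these libraries. In the paired fit they measure the spread between these libraries that remains once differences between the pairs are removed.

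Members and gene lists were chosen with earlier results of these data known. Rows were named by rule: every member, the row with the highest CPM of each pathway list and up to 4 called rows averaging at least 1 CPM (up to 2 per marker list), and the 3 nearest genes for each family. bmper.L, admp2.L and nog2 values follow no size rule and were chosen after their values were seen. So were gs17.L, the organizer rows other than frzb and the ventral and lateral mesoderm rows other than wnt8a. The rows bmp7.1.L, acvr1.S, msx2.S, id4.L, dlx5.L, dlx5.S and a2m.S and the ventx rows were likewise chosen after their values were seen. The 10 members matched RefSeq symbols of Xenopus_laevis_v10.1, and no coordinates are printed because the builds may differ.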

Additional observations from a re-analysis of the deposited data

How the results depend on the processing

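Without the replicate block, 0 genes, 0 members and 0 pathway genes were called by edgeR with TMM, DESeq2 size factors, upper-quartile factors, no filter or any library left out, and by limma-voom. DESeq2 without the block called 52 genes, 0 members and 1 pathway gene. The replicate block gave 1283 genes, 2 members and 9 pathway genes. With the block, DESeq2 called 1118 genes, 2 members and 10 pathway genes, limma-voom 1364, 2 and 11, edgeR with DESeq2 size factors 1271, 2 and 8, and edgeR with no filter 2568 of 35048 genes, 3 members and 15 pathway genes. With each pair left out in turn, calls with the block were 1471, 1055 and 507 genes without replicates 1, 2 and 3, 3, 2 and 2 members, and 14, 6 and 5 pathway genes. Of those genes 666, 305 and 165 rose and 805, 750 and 342 fell, out of 22013, 21988 and 21928 tested. With no filter and the block 1115 genes rose and 1453 fell. In that fit szl.L had an SE of 0.12 and an adjusted p of 8.7e-29, against 0.26 and 0.0111 with the filter (edgeR). Calls with no filter are therefore not comparable with those of the other fits. The summed chordin rows were called with the replicate block (log2 fold change 0.48) and not without it (0.48). The sign of fst.S (0.014) turned with the replicate block (−0.0096), limma-voom (−0.011), DESeq2, limma-voom and DESeq2 size factors with the block (−0.0043, −0.00047 and −0.0016) and the block without replicate 3 (−0.18). That of fst.L turned with the block without replicates 2 and 3 (−0.016 and −0.019), and that of smad4.1.S.g with the block without replicate 1 (0.056). With 1 library left out and no block, signs turned within −0.73 to 0.015 for nog.S, −0.043 to 0.43 for fst.L, −0.27 to 0.24 for fst.S, −0.024 to 0.66 for admp.L, −0.24 to 0.66 for admp.S, −0.27 to 0.0030 for acvr2b.S, −0.34 to 0.19 for smad4.1.S.g and −0.061 to 0.65 for cer1.S, and for the log2 ratios of admp.L to admp.S (−0.038 to 0.26), chordin to admp (−0.095 to 0.59) and admp to noggin (−0.44 to 0.22). Leaving out a library left a group with 2 and a sibling without its partner. Differences between pairs therefore entered these values. Their part in each turn of sign was not tested. No sign of a chordin row turned in any alternative run. Depth limited nog.S and nog2, where counting error was a large share of the value.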
